A study of Saccharomyces cerevisiae with 4 samples.

Results

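The 10 histone genes of the budding yeast Saccharomyces cerevisiae were followed in 2 strains, NBRC1950 and X2180. The genes were taken by name: HTA1 and HTA2 for histone H2A, HTB1 and HTB2 for H2B, HHT1 and HHT2 for H3, HHF1 and HHF2 for H4, HTZ1 for the H2A variant H2A.Z, and HHO1 for the linker histone H1. They are 10 genes beside the 5449 S. cerevisiae genes that had a probe set on the array, 9 of the 10 among them. NBRC1950 is a strain held in a Japanese culture collection and X2180 a diploid laboratory strain derived from S288C. Cultures of both were shaken in YPD, a rich medium with glucose, and the labels name no mutation, transgene or vanillin treatment for either. The labels give no growth phase or cell density. Poly(A) RNA was read on 4 Affymetrix Yeast Genome 2.0 arrays, 2 per strain, from experiments that the design text calls independent. The title of the series ties ergosterol content to vanillin tolerance, and the comparison asks which transcripts differ between the strains.

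Histones package DNA into nucleosomes, each a core of H2A, H2B, H3 and H4 wrapped by DNA. In budding yeast each core histone is encoded by a pair of genes, and the genes lie as divergent pairs, H2A beside H2B and H3 beside H4, that share the promoter region between them. Their messenger RNAs carry poly(A) tails, unlike most histone messages of animals, and are made mainly in S phase, when new DNA needs packaging. The activator Spt10, the HIR repressor complex and the G1/S factors SBF and MBF act on promoters of histone genes, not each on all of them. HTZ1 and HHO1 are single genes outside the divergent pairs.

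Of the 10 genes, 9 had a probe set of their own name. HHF2 had none. The H4 probe set is annotated to HHF1 but marked by the array maker as shared between similar sequences. HTA2 had 2 probe sets, 1 of them also marked as shared. Shared sets cannot tell similar copies apart. In all, 10 histone probe sets were present, 2 of them shared, and all 10 lay above background and entered the test.

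Signals are the deposited intensities after scaling each array to a common median of 973.6 over its S. cerevisiae probe sets. Before scaling these medians were 983 and 1171 on the NBRC1950 arrays, against 894 and 964 on the X2180 arrays. A log2 difference is NBRC1950 minus X2180, and a probe set was called when its adjusted p in limma lay under 0.05, with the adjustment over all 5374 tested probe sets. With 2 arrays per strain, their number limits the precision. Across all tested probe sets 2533 (47.1%) were called, 20.3% higher and 26.8% lower in NBRC1950. The split depended on scaling: 43.1% of the calls were higher with the scaling used here, 70.2% with none and 92.3% with scaling to the median over every probe set, which moved the median gene. The 17 ribosomal RNA probe sets had a mean log2 difference of -1.10 between the strains. The 3' control set of SRB4 exceeded the 5' set by a log2 ratio of 2.66 and 2.83 on the NBRC1950 arrays, against 2.05 and 2.18 on the X2180 arrays, whereas the ratio of ACT1 was 0.332 and 0.309 in NBRC1950 and 0.196 and 0.257 in X2180. The part of these differences, in ribosomal RNA signal and in the 3' to 5' ratios, in the results was not tested.

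The histone genes differed little between the strains, with 2 exceptions. Of the 10 probe sets, 1 was called higher in NBRC1950 (HHO1), 1 was called lower (HHT2) and 8 were not called. Their median log2 difference was 0.03, beside -0.05 over all tested genes, and their median absolute log2 difference 0.101, beside 0.247 over all tested probe sets. The strains' arrays did not overlap for 4 of them (HHO1, HHT2, HTB1 and HTZ1), against 75.6% of all tested probe sets. The share called among the histone sets was thus below that of the whole array, but brightness moved with it. The core histone sets were among the brightest on the array, HTA1 second of 5498 and HHT2, the dimmest core set, at a mean signal of 7945. Of the 282 tested probe sets at least that bright, 37 (13.1%) were called, 1.06% higher and 12.1% lower, with a median absolute log2 difference of 0.114. Bright probe sets thus differed less between the strains than the array as a whole, and the part of brightness in the small differences of the core histones was not tested.

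**Figure D1:**
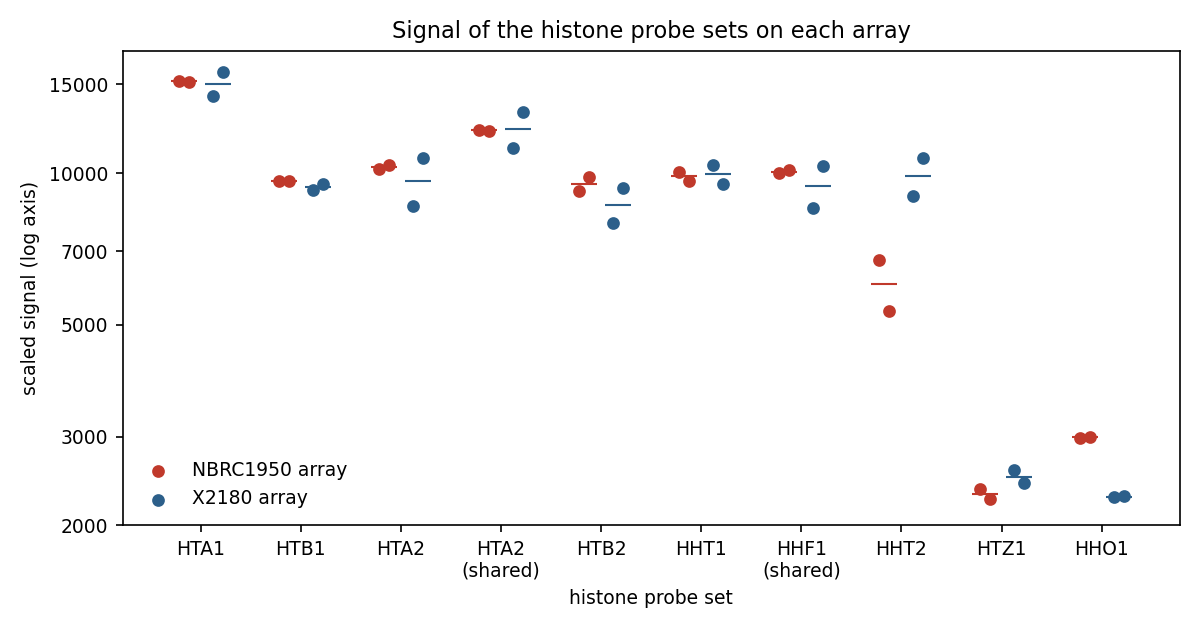
Scaled signal (log axis) of the 10 histone probe sets on each array, NBRC1950 in red to the left of X2180 in blue, with a short line at each strain's mean of 2 arrays. HHT2 lies between 5334 and 6728 in NBRC1950, below both X2180 arrays, and HHO1 lies near 2990 in NBRC1950, above both X2180 arrays.

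H2A and H2B form the dimer that is added last to the nucleosome and leaves it first. HTA1, 1 of the 2 genes for H2A, had signals of 15246 and 15195 in NBRC1950, against 14249 and 15865 in X2180. The NBRC1950 values lay between those of X2180, and the log2 difference was 0.02 ± 0.08 (SE; limma adjusted p = 0.863), with a 95% interval of -0.164 to 0.199. HTB1, which shares a promoter region with HTA1, had 9661 and 9646 in NBRC1950, against 9263 and 9498 in X2180. Both NBRC1950 arrays were the higher ones, but the log2 difference of 0.04 ± 0.06 (SE; limma adjusted p = 0.622) was not called, and its interval reached from -0.109 to 0.192.

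The second H2A and H2B pair gave the same picture. The unshared HTA2 set had 10190.5 and 10370.5 in NBRC1950, against 8584 and 10705 in X2180, a log2 difference of 0.10 (limma adjusted p = 0.458; 95% interval -0.144 to 0.346). The shared HTA2 set had 12201 and 12096 in NBRC1950, against 11236 and 13234 in X2180, and its log2 difference of -0.0054 was close to 0. The spread of both sets lay almost wholly in X2180, whose arrays stood on either side of the NBRC1950 arrays. HTB2, the partner of HTA2, had 9214 and 9809 in NBRC1950, against 7961 and 9351 in X2180. Its strains overlapped, and the log2 difference of 0.14 (limma adjusted p = 0.239) had an interval of -0.0721 to 0.352. Over the 4 unshared H2A and H2B sets, the 95% intervals of the fold lay between 0.893 and 1.28.

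H3 and H4 form the tetramer at the heart of the nucleosome, and their tails carry many of the known histone modifications. HHT1, the first H3 gene, had 10049 and 9658 in NBRC1950, against 10383 and 9496 in X2180, a log2 difference of -0.01 ± 0.07 (SE; limma adjusted p = 0.906). The strains overlapped. The shared H4 set annotated to HHF1 had 10000.2 and 10145 in NBRC1950, against 8529 and 10339 in X2180. Here, too, the NBRC1950 arrays fell between those of X2180, and the log2 difference of 0.10 was not called (limma adjusted p = 0.421; 95% interval -0.124 to 0.327). As this set may read HHF2 as well, the partner of HHT2 was not measured apart from HHF1.

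HHT2, the second H3 gene, was the exception among the core histones. It encodes the same H3 protein as HHT1 from a different locus. Its signals were 6728 and 5334 in NBRC1950, against 9017 and 10699 in X2180. Both NBRC1950 arrays lay below both X2180 arrays, although the 2 arrays of each strain also differed, with means of 6031 ± 986 in NBRC1950 and 9858 ± 1190 in X2180 (SD, n = 2 each). The log2 difference was -0.71 ± 0.12 (SE; limma adjusted p = 0.00285), a fold of 0.61 with a 95% interval of 0.498 to 0.747. Among the 282 tested probe sets at least as bright, HHT2 included, 2 (0.709%) had a log2 difference this low or lower, against 8.73% of all tested probe sets.

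The call of HHT2 was sensitive to 1 array and to the test. Without X2180 replicate 2 the log2 difference was -0.59 and was not called (limma adjusted p = 0.0593), and over the arrays left out in turn it ranged from -0.88 to -0.55. In the methods' t-test, run on the same values, the unadjusted p was 0.0756. With no further scaling HHT2 stood at -0.50 (limma adjusted p = 0.0703), and after scaling by the median over every probe set of the array at -0.17 (limma adjusted p = 0.168). These scalings moved the median gene to 0.16 and 0.50, so relative to the median gene HHT2 stood at -0.67 under each of them and under the scaling used here. With quantile normalization it stood at -0.64 relative to the median gene.

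**Figure D2:**
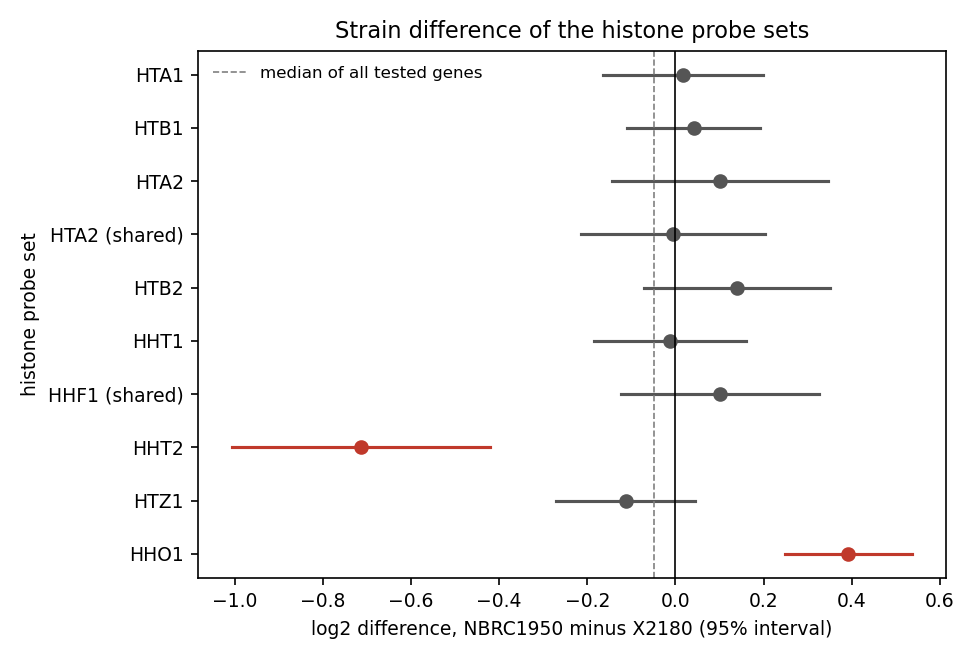
Log2 difference between the strains, NBRC1950 minus X2180, for each histone probe set, with its 95% interval from limma. Called sets are red, the solid line marks 0 and the dashed line the median of all tested genes, -0.05. HHT2 (-0.71) and HHO1 (0.39) have intervals clear of 0, and the other 8 intervals include it.

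The ratio of the 2 copies within an array does not depend on the scaling per array. It shows whether the signals of the copies differed unequally between the strains. Whether the probes match the sequence of both strains equally well was not tested, for these or any other sets. Its level also holds the response of 2 different probe sets, so only its difference between strains is compared. The log2 ratio of HHT2 to HHT1 was -0.58 and -0.86 on the NBRC1950 arrays, against -0.20 and 0.17 on the X2180 arrays. The strains did not overlap, and the mean ratio was lower in NBRC1950, a difference of -0.70. The exact permutation test (two-sided, 6 arrangements) gave p = 0.333, the smallest p that 2 arrays against 2 allow.

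For the other copies the strains overlapped. The log2 ratio of HTA2 (unshared set) to HTA1 was -0.58 and -0.55 in NBRC1950, against -0.73 and -0.57 in X2180. That of HTB2 to HTB1 was -0.07 and 0.02 in NBRC1950, against -0.22 and -0.02 in X2180. The differences between the strains were 0.08 and 0.10 (exact permutation p = 0.667 for each, two-sided). Of 3 copy ratios compared, none could pass a threshold of 0.05 in this design, and the H4 copies gave no ratio.

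**Figure D3:**
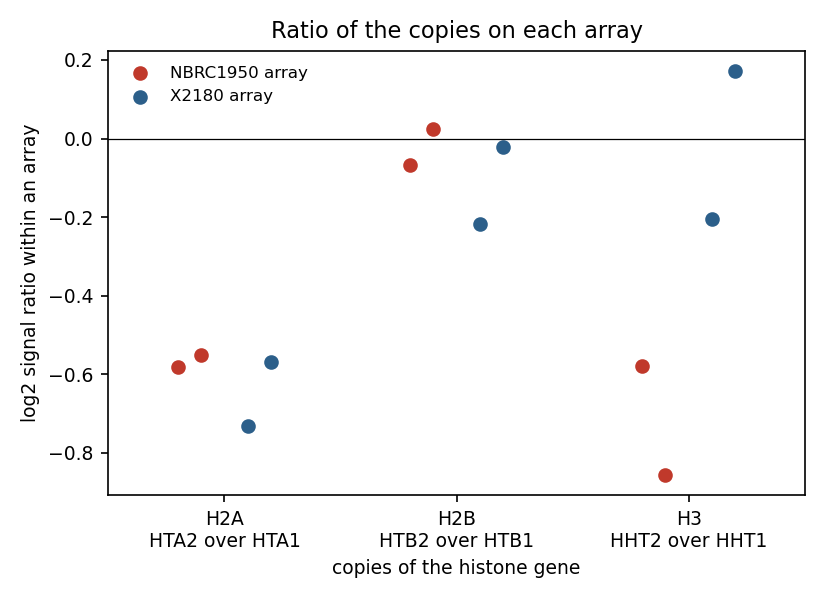
Log2 ratio of the signals of the second over the first gene copy on each array, for H2A, H2B and H3, with NBRC1950 in red to the left of X2180 in blue. For H3 the NBRC1950 arrays (-0.58 and -0.86) lie below the X2180 arrays (-0.20 and 0.17), and for H2A and H2B the strains overlap.

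The variant H2A.Z marks the nucleosomes beside gene starts and is made outside S phase as well. HTZ1 had signals of 2357 and 2260.0 in NBRC1950, against 2571 and 2423 in X2180. Both NBRC1950 arrays were lower, but the log2 difference of -0.11 ± 0.07 (SE; limma adjusted p = 0.206) was not called, with an interval of -0.271 to 0.0452. Relative to the median gene it stood at -0.06.

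HHO1, the linker histone, binds the DNA that enters and leaves the nucleosome. Its signals were 2986 and 2995 in NBRC1950, against 2276 and 2282 in X2180. The 2 arrays of each strain were nearly equal, and the strains were well apart. The log2 difference was 0.39 ± 0.06 (SE; limma adjusted p = 0.00174), a fold of 1.31 with a 95% interval of 1.19 to 1.45. HHO1 was called higher with each array left out in turn (0.39 each time), under each scaling tried (0.44 relative to the median gene) and in the methods' t-test after Benjamini-Hochberg adjustment (adjusted p = 0.0222). Among the 1330 tested probe sets at least as bright as HTZ1, the dimmest histone set, 13.6% were called higher and 31.7% lower, 45.3% in all.

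The arrays of X2180 differed from each other more than those of NBRC1950 at 7 of the 8 core histone sets. The exception was HHT2, which differed by -0.335 between the NBRC1950 arrays (replicate 2 minus replicate 1, log2) and by 0.247 between the X2180 arrays. Over the 282 probe sets at least as bright, the SD of this difference was 0.068 in NBRC1950 and 0.124 in X2180. The replicates of HHT2 thus lay further apart than is usual at its brightness. On X2180 replicate 2, 7 of the 8 core sets were brighter than on replicate 1, with HHT1 the exception. The median log2 difference between the 2 X2180 arrays was 0.23 over these sets, beside 0.129 over all 282 probe sets as bright. Between the NBRC1950 arrays the core sets had a median difference of -0.0035, and 3 of 8 were brighter on replicate 2. Without X2180 replicate 2, the unshared HTA2 set stood at 0.26, HTB2 at 0.26, HHF1 at 0.24 and HHO1 at 0.39, and calls among the core sets changed. Without X2180 replicate 1, HTA2 stood at -0.06 and HHF1 at -0.04, so the direction of these 2 rested on which X2180 array was used, while HTB2 stood at 0.02 and kept its direction.

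**Figure D4:**
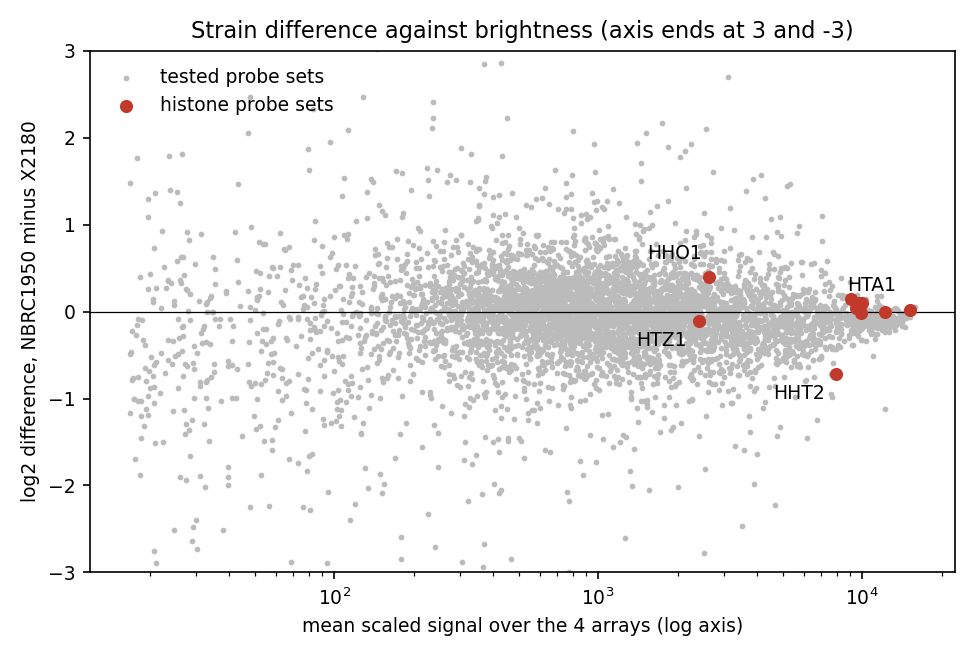
Log2 difference between the strains, NBRC1950 minus X2180, against the mean scaled signal over the 4 arrays (log axis) for the tested probe sets in grey and the histone sets in red. The vertical axis ends at a log2 difference of 3 either way, and 73 probe sets lie beyond it. The core histone sets lie at the bright end, where the differences are narrow, and HHT2 lies below that band.

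Genes beside the histone loci were read from the R64 gene order of S. cerevisiae, 2 protein-coding genes on each side of each of the 6 loci. Of 24 neighbours, 23 were tested, 4 higher and 7 lower in NBRC1950, with 12 not called. Over all tested genes 47.2% were called, 20.3% higher and 26.9% lower. At the HHT2 and HHF2 locus on chromosome XIV, 3 of 4 neighbours were called lower. KTR5, a mannosyltransferase gene next to HHF2, had signals of 672 and 645 in NBRC1950, against 1138 and 1094 in X2180, a log2 difference of -0.76 (limma adjusted p = 0.000208). SIW14, a phosphatase gene next to HHT2, differed by -0.29 (limma adjusted p = 0.0114), and YNL033W, read by a shared set, by -1.20 (limma adjusted p = 0.00949). That shared set was dim, with 37.4 and 23.8 in NBRC1950, against 65.0 and 72.5 in X2180, and cannot tell similar copies apart. CRZ1, the calcineurin-dependent activator beyond KTR5, stood at 0.03 and was not called.

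The locus of HTA2 and HTB2 on chromosome II, whose own sets were not called, had the same count, 3 of 4 neighbours lower. They were ECM15 at -0.62, NTH2, a trehalase gene, at -2.05, and YBL005W-A, a retrotransposon frame with a shared set, at -4.34 (limma adjusted p from 1.8e-06 to 0.000301), with UTP20 at 0.02. Beside the HHT1 and HHF1 pair, also on chromosome II, FLR1, a drug transporter gene, was higher by 0.45 (limma adjusted p = 0.00394), while DSF2 (-0.12) and IPP1 (-0.13), the inorganic pyrophosphatase, were not called, and YBR012W-B had no probe set. Beside HTA1 and HTB1, YDR222W was higher by 1.14 (limma adjusted p = 5e-05), and ADK1 (-0.18), SIR4 (0.01) and CRF1 (-0.22) were not called. CRF1 lay near background, with 13.1 and 17.4 in NBRC1950, against 11.6 and 26.7 in X2180.

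Beside HTZ1, YOL014W (0.99) and PLB3, a phospholipase gene (0.45), were higher and HRD1, a ubiquitin ligase gene, was lower (-0.42), with RCL1 at -0.0072. Beside HHO1 none of TAF14 (-0.14), TBF1 (-0.14), NAN1 (0.05) and KAP120 (0.06) was called by limma. The X2180 arrays of TBF1 lay far apart, at 371 and 767, and its SE was 0.29. HHO1 was called higher and none of its measured neighbours was called. Of all 5332 tested genes, 2815 were likewise not called.

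Counts in the gene lists that follow hold for scaling to the S. cerevisiae median and moved with it, as the calls over the whole array did. They stand beside 1085 higher and 1432 lower of all 5332 tested genes, 47.2% called in all. No list was tested against that share. Of 12 regulators of histone genes tested, 4 were higher and 2 lower (4 and 0 with no further scaling, 10 and 0 scaled to all probe sets), with a median log2 difference of 0.16, beside -0.05 over all tested genes. Swi4 with Swi6 forms SBF, and Mbp1 with Swi6 forms MBF. All 3 of their genes were higher: SWI6 with signals of 597 and 529 in NBRC1950, against 276 and 379 in X2180 (log2 difference 0.80, limma adjusted p = 0.00469), SWI4 at 0.58 (limma adjusted p = 0.0117) and MBP1 at 0.52 (limma adjusted p = 0.00998). Of the 4 subunits of the HIR complex, HIR2 was higher by 0.36 and HPC2 lower at -0.34, with HIR1 (0.07) and HIR3 (0.14) not called.

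SPT10, which encodes the activator that binds the histone promoters, was lower, with 336 and 333 in NBRC1950, against 429 and 410.1 in X2180 (log2 difference -0.32, limma adjusted p = 0.0247). SPT21, its partner, stood at 0.25 and was not called (limma adjusted p = 0.056). The chaperones ASF1 (-0.03) and RTT106 (0.04) and the ATPase gene YTA7 (0.19), all tied to the regulation of histone genes, were not called. In this list, 2 were higher without X2180 replicate 2 in place of 4. The 2 lower calls fell to 0 without X2180 replicate 1 or NBRC1950 replicate 1, and to 1 without X2180 replicate 2 or NBRC1950 replicate 2.

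Of 17 genes for histone chaperones, importers and the H3 variant of centromeres, 6 were higher and 4 lower, with a median of 0.15. The 4 lower calls depended on the settings: 0 were lower with no further scaling (3 higher) or scaled to all probe sets (17 higher), 2 with quantile normalization or no filter, and 1 with no intensity trend. The higher ones were led by KAP114, an importer of H2A and H2B, with 1141 and 1122 in NBRC1950, against 634 and 640 in X2180 (log2 difference 0.83, limma adjusted p = 0.000114), followed by CAC2 (0.36), a subunit of chromatin assembly factor 1, and VPS75 (0.28). The lower ones were led by NHP6A (-0.28). Among them were SPT16 (-0.20) and POB3 (-0.21), the subunits of the FACT complex, which NHP6A assists, and SPT6 (-0.23). NHP6B, the paralogue of NHP6A, was higher by 0.21 (limma adjusted p = 0.0288). CSE4, which encodes the H3 variant of centromeres, was higher by 0.30 (limma adjusted p = 0.0206), while its chaperone gene SCM3 (0.19) and CHZ1 (-0.14), a chaperone gene for H2A.Z, were not called. With an array left out, 2 were higher and 0 lower without NBRC1950 replicate 2, 4 and 1 without NBRC1950 replicate 1, 2 and 3 without X2180 replicate 1, and 5 and 2 without X2180 replicate 2.

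The SWR1 complex exchanges H2A for H2A.Z. Of its 14 genes, 4 were higher and 0 lower by limma, with a median of 0.09. Higher calls numbered 2 with no further scaling and 14 scaled to all probe sets. They were SWC3 (log2 difference 0.88, limma adjusted p = 0.000278), SWR1 itself (0.47), SWC4 (0.26) and YAF9 (0.26). Leaving out either NBRC1950 array, or X2180 replicate 1, left 2 higher, and in the last case 2 genes were lower.

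Of 31 genes for histone-modifying enzymes or subunits of their complexes, 6 were higher and 7 lower, at a median of 0.01. With no further scaling the counts were 5 and 2, and scaled to all probe sets 24 and 2. The lower ones were led by RAD6, the ubiquitin-conjugating enzyme for H2B (log2 difference -0.79, limma adjusted p = 1e-04), JHD2, an H3 demethylase (-1.21), and SIR2, the silencing deacetylase (-0.52). The higher ones were led by GIS1 (0.78), SET1, the H3 lysine 4 methyltransferase (0.59), and SIN3 (0.45), a subunit of a deacetylase complex. With X2180 replicate 2 or NBRC1950 replicate 2 left out, 3 were higher, and with X2180 replicate 1 left out 4 were lower. Of 9 genes for the turnover of histone messages and proteins, PAP2, a poly(A) polymerase gene of the nuclear decay machinery (0.73), and RAD53, a checkpoint kinase gene (0.39), were higher and UBC5, a ubiquitin-conjugating enzyme gene, was lower (-0.33). The median was 0.05. With no further scaling 3 were higher and 0 lower, and scaled to all probe sets 8 and 0. With X2180 replicate 2 or either NBRC1950 array left out, 1 gene of this list was higher and 0 lower in limma.

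Genes of the cell cycle phases were read because histone messages peak with DNA synthesis. Of 23 genes of G1/S and DNA replication, 10 were higher and 3 lower, with a median of 0.22. The counts were 8 higher and 0 lower with no further scaling, and 21 and 0 scaled to all probe sets. RNR1, the large subunit of ribonucleotide reductase (log2 difference 0.59), RFA1 (0.64) and POL12 (0.63), of the replication protein A and polymerase alpha complexes, led the higher ones (limma adjusted p from 0.000553 to 0.00093). RAD27 (-0.31), RFA3 (-0.38) and PRI1 (-0.25) were lower. The list had 1 lower call when either X2180 array or NBRC1950 replicate 1 was left out. The summed signal of this list was 35890 and 36172.5 in NBRC1950, against 31137 and 31664 in X2180. Of 11 genes of G2/M, 1 was higher, CLB2 (0.63), the main mitotic cyclin, and 0 lower by limma, with a median of 0.09, and scaled to all probe sets 11 were higher.

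Of 18 M/G1 genes, 2 were higher and 11 lower, with a median of -0.41. With no further scaling 1 was higher and 5 lower, and scaled to all probe sets 8 were higher and 5 lower, so the balance of the list turned with that scaling. Its summed signals were 25946 and 25846 in NBRC1950, against 39309 and 42551 in X2180. The lower ones were led by DSE4 (-1.44), CTS1 (-1.44) and AMN1 (-1.002), of which DSE4 and CTS1 encode wall enzymes for the separation of daughter cells (limma adjusted p from 4.31e-06 to 2.71e-05). The 2 higher ones were MCM3 (0.35) and MCM7 (0.25), subunits of the replicative helicase, and fewer were higher with any array left out. Of the same helicase, MCM5 (-0.98), MCM4 (-0.35) and MCM2 (-0.25) were lower, and MCM6 (-0.04) was not called. Of 14 genes of slow growth, 5 were higher and 0 lower by limma, at a median of 0.25 (6 higher with no further scaling, 12 scaled to all probe sets), led by HSP26, a small heat shock protein gene (2.85), GAD1 (0.72) and SPI1 (0.68). With NBRC1950 replicate 2 left out 3 were higher. The summed signal of that list was 8239 and 8675 in NBRC1950, against 7740 and 7905 in X2180. The part of cell cycle phase or culture state in the values of HHT2 and HHO1 was not tested.

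Haploid-specific and mating type genes were dim in both strains, with 1 higher and 10 lower of 17 tested and a median of -0.76. With no further scaling 1 was higher and 5 lower, scaled to all probe sets 5 and 4, and with quantile normalization 3 and 7. The summed signals were 1217 and 1206 in NBRC1950, against 1696 and 1889 in X2180. The lower ones were led by RME1 (log2 difference -1.87), BAR1 (-1.91, with 1 NBRC1950 array above background) and AXL1 (-0.87). STE18, not above background in X2180, was at least 1.61-fold higher in NBRC1950. The a-factor gene MFA1 had 63.8 and 44.8 in NBRC1950, against 49.2 and 46.3 in X2180, and was not called. MFA2, also an a-factor gene, was lower (-0.83, limma adjusted p = 0.0332), as was STE2 (-0.56). STE3, not above background in NBRC1950, was at least 2.09-fold higher in X2180. The alpha-factor gene MF(ALPHA)2 (0.24) was not called, and MF(ALPHA)1 was too dim to be tested.

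**Figure D5:**
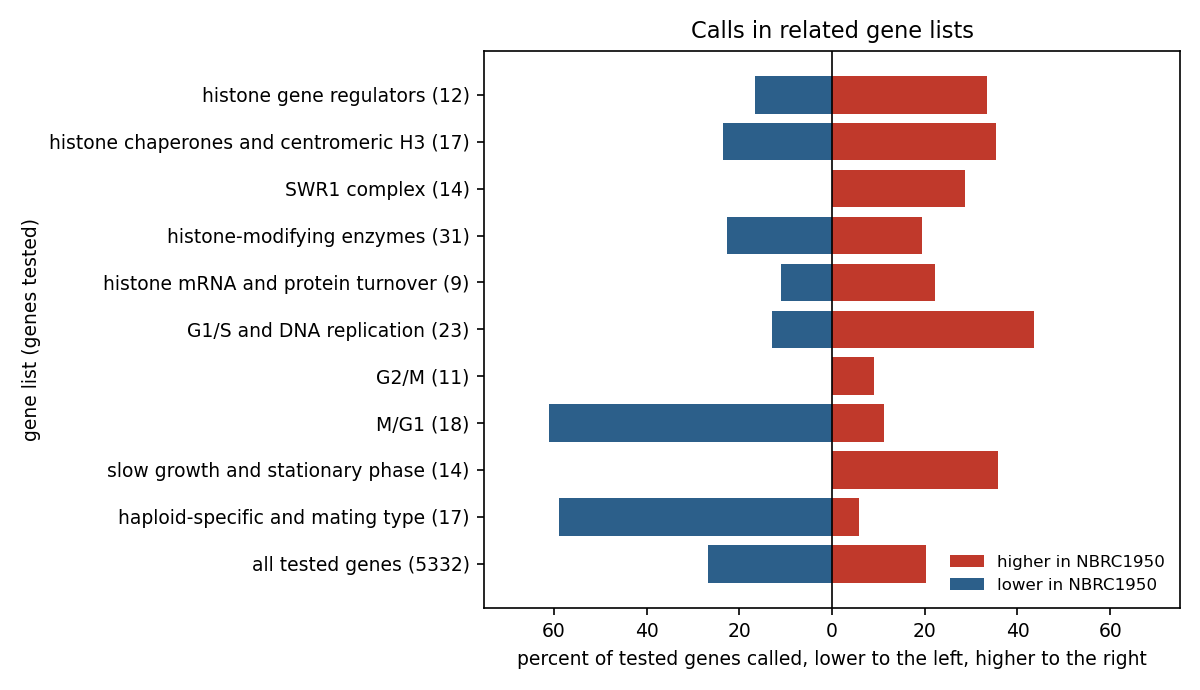
Percent of the tested genes of each list that were called in limma, higher in NBRC1950 to the right in red and lower to the left in blue, with the number tested in brackets and all 5332 tested genes at the bottom. M/G1 genes (11 of 18 lower) and haploid-specific genes (10 of 17 lower) reach furthest to the left, and G1/S genes (10 of 23 higher) furthest to the right, with scaling to the S. cerevisiae median.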

How the data were processed

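The authors deposited 1 linear intensity value per probe set and array. GCOS is the only tool in the submitters' processing notes. Its version and settings are not given in the sources used here, and the per-array and per-gene GeneSpring normalization of the design text was not visible in the deposited intensity values.

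Probe sets were named from the platform annotation by gene identifier through the R64 RefSeq gene table: 5498 of 10928 named 1 S. cerevisiae gene, and 5216 that named none and were no controls served as background. Intensities were scaled per array to the median of the S. cerevisiae sets, floored at 4.566, the median background signal, and converted to log2. Sets with a mean above 16.48, the 90th background percentile, were tested with limma 3.58.1 in R 4.3.3 (lmFit, eBayes with intensity trend, no covariates) with Benjamini-Hochberg adjustment. The fit had 2 residual degrees of freedom and borrowed 5.399. For genes in lists the brightest set stood for the gene. Where a set lay above the 90th background percentile on neither array of a strain, a fold is a bound against that percentile. The script was tested on simulated data.

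Named genes were all members, the 2 neighbours on each side, all histone gene regulators with CSE4, SCM3 and CHZ1, and up to 3 called genes per direction in each list by smallest adjusted p. POB3, NHP6B, YAF9, MCM2, MCM4, MCM5, MCM6, MFA1, MFA2, MF(ALPHA)1, MF(ALPHA)2, STE2 and STE3 were added after their values were seen. Members and lists were chosen with earlier results of these data known. Alternatives covered scaling, floor, filter, trend, the methods' t-test, replicate number as a block and leaving out each array. Same-numbered arrays were not taken as pairs (correlation of their deviations 0.0706).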

Additional observations from a re-analysis of the deposited data

Results flagged for a closer look

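The array design holds sets for another species, Schizosaccharomyces pombe (fission yeast), whose RNA the labels do not name, and 9 of these are annotated to its histone genes. The set for hta1, an H2A gene of that species, lay above the 90th background percentile on all 4 arrays, with scaled signals of 219 and 315 in NBRC1950, against 158 and 216 in X2180, and a mean of 227 over the arrays. The set for hhf2, an H4 gene, had 20.9 and 13.1 in NBRC1950, against 50.9 and 50.4 in X2180, with a mean of 33.8. It was above that percentile on both X2180 arrays and on 1 of the 2 NBRC1950 arrays. Of the other 7 sets, 2 passed the percentile on some array and 5 on none. Whether these sets read S. cerevisiae histone messages was not tested.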

How the results depend on the processing

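HHO1 was called higher under every alternative run, and HHT2 kept its direction under all of them. The count of called histone sets depended on scaling. With no further scaling, 0 histone sets were called lower, along with 396 of all tested sets, 12 list genes and 4 neighbours. Scaled to all probe sets, 9 histone sets were called higher and 0 lower, with 4005 and 332 of all tested sets (92.3% higher in place of 43.1%), 130 and 11 list genes and 16 and 3 neighbours. With quantile normalization 3 histone sets were higher (HTB2, HHF1 and HHO1) and 1 lower. Of all tested sets 1303 were then higher and 1198 lower, so 52.1% of all calls were higher. Under the methods' t-test after adjustment, 221 and 316 of all sets were higher and lower, with 0 histone sets lower, 8 and 7 list genes and 1 and 3 neighbours. At its unadjusted threshold 890 and 1197 of all sets were called, 0 histone sets lower and 25 list genes lower. These differ from 1092 and 1441 of all sets, 41 and 38 list genes and 4 and 7 neighbours in limma with all arrays.

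With 1 array left out, the lone array is assumed to vary like the pair of the other strain. The number of histone sets called then depended on the array left out. List genes called higher ranged from 24 to 32. Differences near 0 changed sign. The shared HTA2 set stood at 0.20 with no further scaling, 0.54 scaled to all probe sets, 0.092 with quantile normalization and 0.048 as the mean of both HTA2 sets. HHT1 stood at 0.20, 0.53 and 0.070 under the same scalings, and HTZ1 at 0.10 with none and 0.43 scaled to all sets. Over the arrays left out, the shared HTA2 set ranged from -0.12 to 0.11, the unshared from -0.058 to 0.26, HTA1 from -0.060 to 0.095, HHT1 from -0.076 to 0.053 and HHF1 from -0.038 to 0.24. With replicate number as a block, 1 histone set was higher and 1 lower, and 1168 and 1527 of all sets were called, so the block changed no histone call.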
